A study of Homo sapiens with 6 samples.

Results

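The genes described here are 29 genes of cholesterol synthesis and of the handling of cholesterol that cells take up. They were taken from the table by gene name, as a list drawn up with earlier results of these data known: 18 genes of the synthesis pathway, 5 genes that control it, 3 genes of sterol transport inside the cell and 3 genes that limit uptake, export cholesterol or store it. All 29 were among the 60748 genes of the deposited table, and all 29 had enough reads to be tested among 18275 genes. RNA was sequenced from the human hepatic stellate cell line LX-2 after 24 h of culture in DMEM with 10% serum. In LX-2FAP (n = 3 libraries) the cells overexpressed fibroblast activation protein α (FAP), a serine protease of the cell surface. LX-2Vector (n = 3 libraries) carried the empty vector. Per the study's methods, both lines were made with a lentivirus and selected with puromycin, and the vector also carries EGFP, so both groups share the infection and the selection. The methods speak of selected cell clones, but how many clones make up each line is not stated. A difference between clones and an effect of FAP cannot be told apart here. The labels do not say that the 3 libraries of a group came from separate cultures. The p-values below thus measure only the spread between these libraries.

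Cells make cholesterol from acetyl-CoA. The mevalonate arm builds farnesyl diphosphate, the branch point to other isoprenoids, and the later steps join 2 farnesyl units to squalene, close the rings to lanosterol and trim lanosterol to cholesterol. The pathway is read out by SREBP2, the product of SREBF2: when sterols in the endoplasmic reticulum are low, SCAP carries the SREBP precursors to the Golgi, where they are cut and released as transcription factors, and when sterols are high the INSIG proteins hold SCAP back. Hepatic stellate cells store retinyl esters in lipid droplets when quiescent and lose them on activation, and LX-2 is used as a model of the activated state.

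FAP itself separated the groups in every library. Its read counts were 49, 42 and 55 in LX-2Vector replicates 1 to 3 and 14864, 15160 and 14805 in LX-2FAP, a log2 fold change of 8.33 (adjusted p = 4.47e-16 in edgeR, SE 0.13). Total counts ran from 17355700 to 26352060 a library, with the ranges of the groups overlapping. CPM are read counts scaled to the size of the library and by its TMM factor. The marker sums of this paragraph were scaled to library size alone. The summed level of stellate cell markers lay between 2116 and 2269 CPM over the 6 libraries. This sum mainly follows VIM, at 26924 to 41397 counts, where COL1A1, the next highest, had 3580 to 8338. COL1A2 had only 13 to 33 counts and ACTA2 49 to 91. LRAT, which makes the retinyl esters of quiescent stellate cells, had 0 counts in all 6 and DES had 0 or 1. Of the 8 stellate markers tested, COL1A1, COL3A1 and PDGFRB were lower in LX-2FAP and VIM was higher. The other 4 did not pass. Among these, ACTA2 was lower in every LX-2FAP library (log2 fold change -0.36, adjusted p = 0.145 in edgeR). Summed hepatocyte markers stayed between 0.0827 and 0.288 CPM, with TTR and AHSG at 0 counts throughout. Summed endothelial markers were low but separated the groups, at 9.49, 9.51 and 10.7 CPM in LX-2Vector and 8.39, 7.02 and 8.76 CPM in LX-2FAP, lowest in replicate 2. Among them VWF, at 12 to 74 counts, fell by 1.06 on the log2 scale (adjusted p = 0.0268 in edgeR), while PECAM1 had a log2 fold change of 0.05 (adjusted p = 0.878 in edgeR) and CDH5, at 3 to 10 counts, was too low to be tested. Summed leukocyte markers (7.69 to 9.97 CPM) and epithelial markers (0.712 to 1.27 CPM) overlapped between the groups. The part of any of these markers in the results below was not tested.

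Of the 29 genes, 11 fell in LX-2FAP and 0 rose at an adjusted p under 0.05 by the quasi-likelihood test of edgeR, against 2.73% of all 18275 tested genes that fell and 2.57% that rose. At an unadjusted p under 0.05, 16 were lower and 1 was higher, where 11.6% of all genes were lower. The Wald test of DESeq2 called 9 lower and 1 higher, where 2.23% of all genes were lower and 623 of all 18275 were higher. HMGCS1 (adjusted p = 0.147) and INSIG1 (adjusted p = 0.0852) were the 2 of the 11 that DESeq2 did not call, and SOAT1 was the 1 higher. The 11 were the synthesis genes HMGCS1, MVK, MVD, FDPS, SQLE, LSS, TM7SF2 and DHCR7 and the control genes INSIG1, SREBF1 and SREBF2. The changes were small: log2 fold changes of the 11 ran from -0.50 to -0.26, which is 16.2% to 29.5% less RNA, and 26 of the 29 genes had a fold change below zero, with a median of -0.16 against -0.01 over all tested genes. In 14 of the 29 the 3 LX-2FAP libraries all lay below the 3 LX-2Vector libraries, against 13.4% of all genes, and in 1 gene they all lay above, against 13.0%. In RNA from a whole culture, fewer cells with the transcript and less of it in each cell cannot be told apart.

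**Figure D1:**
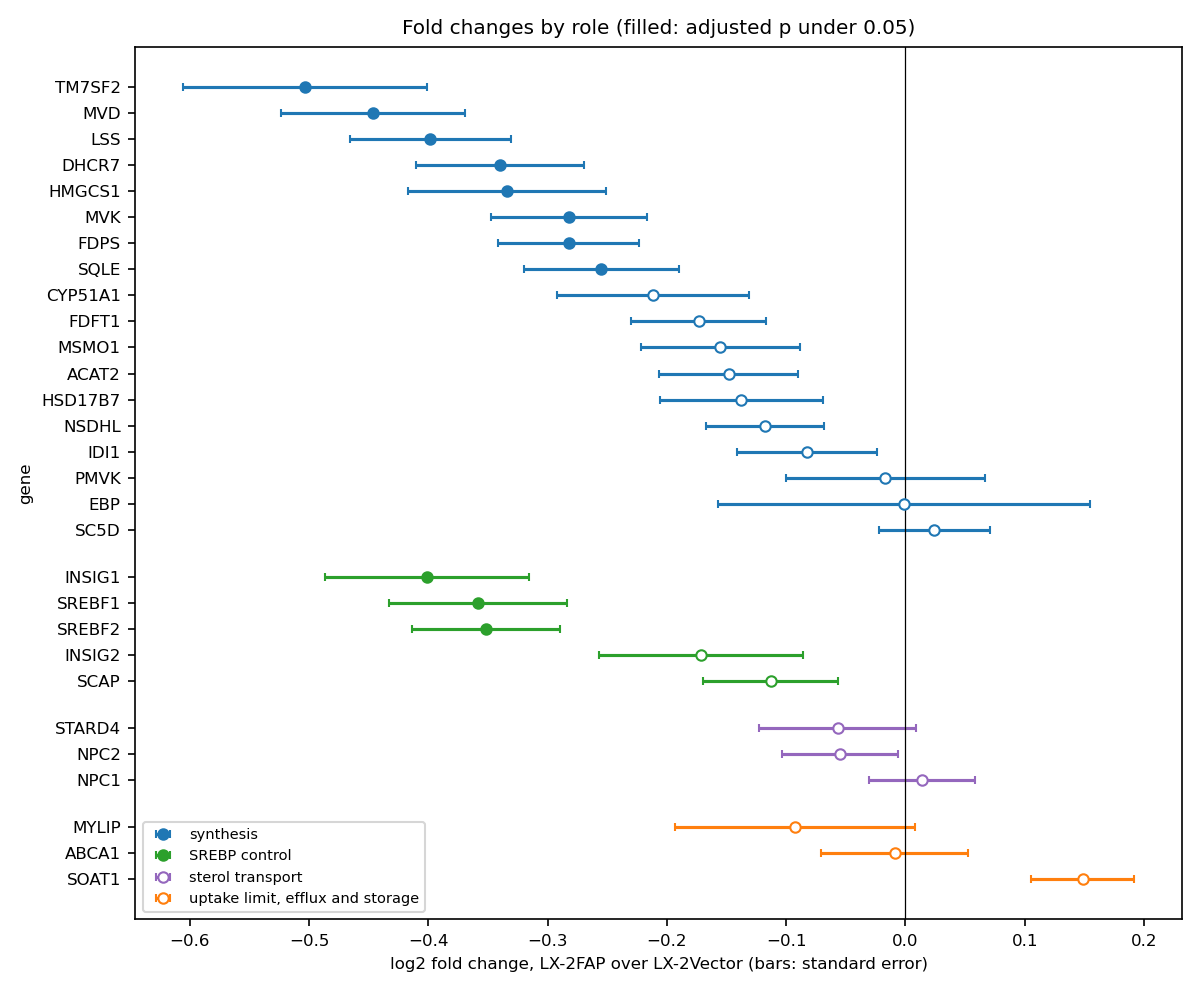
Log2 fold change of LX-2FAP over LX-2Vector (x axis) for each of the 29 genes (rows, grouped and coloured by role), with bars of 1 standard error and filled points for an adjusted p under 0.05. The filled points run from TM7SF2 at -0.50 to SQLE at -0.26 and all belong to the synthesis or SREBP control groups, while SOAT1 at 0.15 lies farthest to the right.

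SREBP proteins bind sterol regulatory elements together with the factors NF-Y and Sp1, so the promoters of the genes the results turn on are shown with the letters of such sites. The sequences are the 250 bases before the annotated start, written 5′ to 3′ on the strand of the gene, from RefSeq on GRCh38.p14. Capitals mark matches on either strand to a sterol regulatory element (TCACNCCAC) or to the NF-Y box (CCAAT, which reads ATTGG on the other strand). SREBF2 (chr22:41832855-41833104, plus strand), HMGCS1 (chr5:43313413-43313662, minus strand), INSIG1 (chr7:155297628-155297877, plus strand), MVD (chr16:88663092-88663341, minus strand) and LSS (chr21:46228775-46229024, minus strand) fell in LX-2FAP, and SCAP (chr3:47475942-47476191, minus strand) is shown beside them as a control gene of the same system that did not pass the test.
SREBF2: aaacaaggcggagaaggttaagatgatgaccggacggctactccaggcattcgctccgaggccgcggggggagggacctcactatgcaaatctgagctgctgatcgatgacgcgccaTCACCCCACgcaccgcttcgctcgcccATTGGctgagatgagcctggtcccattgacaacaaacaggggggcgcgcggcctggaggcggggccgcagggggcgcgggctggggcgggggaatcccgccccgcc
HMGCS1: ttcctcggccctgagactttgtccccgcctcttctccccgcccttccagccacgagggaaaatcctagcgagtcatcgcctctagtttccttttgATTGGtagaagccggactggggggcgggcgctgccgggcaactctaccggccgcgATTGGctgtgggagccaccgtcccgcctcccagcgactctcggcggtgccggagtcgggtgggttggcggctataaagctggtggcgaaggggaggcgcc
INSIG1: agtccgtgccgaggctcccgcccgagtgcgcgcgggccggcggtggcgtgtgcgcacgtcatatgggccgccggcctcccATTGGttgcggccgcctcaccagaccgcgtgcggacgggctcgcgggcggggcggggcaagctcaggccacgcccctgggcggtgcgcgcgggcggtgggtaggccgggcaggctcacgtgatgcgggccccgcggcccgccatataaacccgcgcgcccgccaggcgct
MVD: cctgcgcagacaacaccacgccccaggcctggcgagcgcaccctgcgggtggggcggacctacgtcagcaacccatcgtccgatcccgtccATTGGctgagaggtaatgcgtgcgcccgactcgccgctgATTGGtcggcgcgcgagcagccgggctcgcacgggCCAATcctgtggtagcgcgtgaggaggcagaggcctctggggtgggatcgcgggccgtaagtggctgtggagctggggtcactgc
LSS: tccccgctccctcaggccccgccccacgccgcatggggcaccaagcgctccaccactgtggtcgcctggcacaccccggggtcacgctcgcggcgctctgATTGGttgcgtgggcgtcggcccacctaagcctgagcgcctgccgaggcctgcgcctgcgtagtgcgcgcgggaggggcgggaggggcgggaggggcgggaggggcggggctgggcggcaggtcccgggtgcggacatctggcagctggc
SCAP: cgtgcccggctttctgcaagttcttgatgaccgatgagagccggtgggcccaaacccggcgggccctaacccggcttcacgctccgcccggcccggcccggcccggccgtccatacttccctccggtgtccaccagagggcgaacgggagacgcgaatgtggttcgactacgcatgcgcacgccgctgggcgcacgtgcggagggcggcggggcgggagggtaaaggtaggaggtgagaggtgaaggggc
The sterol element of SREBF2 lay 133 to 125 bases before the start, with an NF-Y box at 106 to 102. MVD held 3 NF-Y boxes, at 159 to 155, 120 to 116 and 85 to 81 bases before the start. INSIG1 and LSS held 1 each, and the SCAP window held none. HMGCS1 held 2 in the window shown, which belongs to 1 of its 2 starts in the table. Where a gene had several starts, the window with the most NF-Y boxes was shown, so no window of HMGCS1 held more. Of the 29 genes, 26 had a window in the table, in 33 windows in all because some genes have several starts, and ACAT2, FDFT1 and SQLE had none. The sterol element was found in the window of SREBF2 alone among the 26, against 0.883% of 35116 windows of this length in the table. The NF-Y box was in 21 of the 33 windows, against 11240 of all 35116 windows, and in the windows of 9 of the 10 matched genes that fell and of 10 of the 16 matched genes that did not pass. The Sp1 type GC box (GGGCGG) was in 31 of the 33 windows, against 42.6%, and the DR4 element of the liver X receptor was in 0 of them, against 0.0484%. These are matches of letters, and binding was not measured. Sites with other letters or outside the 250 bases were not searched, so a window without a match does not show that a gene lacks such sites.

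In the mevalonate arm, 4 of 7 genes fell, against 2.73% of all tested genes, and the median log2 fold change was -0.28. HMGCS1 (ENSG00000112972, 5:43289395-43313512 on GRCh38), which condenses acetyl-CoA and acetoacetyl-CoA to HMG-CoA, read 388, 401 and 434 CPM in LX-2Vector and 380.5, 272 and 317 CPM in LX-2FAP. The highest LX-2FAP library lay just under the lowest LX-2Vector library and the other 2 lay well below, so the groups did not overlap, and the mean went from 408 ± 23.5 to 323 ± 54.6 CPM (SD, n = 3 each). The log2 fold change was -0.33 (adjusted p = 0.0312 in edgeR, SE 0.08). A further transcript on the other strand covers 14.95% of the exon bases of HMGCS1, and reads of the pair cannot be separated if strand was not used in counting.

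MVK (ENSG00000110921, 12:109573255-109598117), which phosphorylates mevalonate, read 37.5, 36.9 and 34.6 CPM in LX-2Vector and 32.2, 29.2 and 28.1 CPM in LX-2FAP. All LX-2FAP libraries were below all LX-2Vector libraries, and its level fell by 17.8% (adjusted p = 0.0239 in edgeR, log2 fold change -0.28, SE 0.07). PMVK, the next kinase, went from 15.4 ± 1.44 to 15.3 ± 0.414 CPM with a log2 fold change of -0.02 (adjusted p = 0.936 in edgeR, SE 0.08), and its libraries were interleaved. MVD (ENSG00000167508, 16:88651935-88663161), the decarboxylase that makes isopentenyl diphosphate, read 44.2, 37.1 and 41.2 CPM in LX-2Vector against 33.4, 28.0 and 28.6 CPM in LX-2FAP. The groups stood apart, and the drop was the largest of this arm at 26.6% (adjusted p = 0.00765 in edgeR, log2 fold change -0.45, SE 0.08).

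FDPS (ENSG00000160752, 1:155308748-155320666), which makes farnesyl diphosphate, read 88.3, 87.3 and 91.7 CPM in LX-2Vector and 80.6, 66.7 and 72.1 CPM in LX-2FAP. Again every LX-2FAP library was lower, and the level fell by 17.8% (adjusted p = 0.0163 in edgeR, log2 fold change -0.28, SE 0.06). An antisense transcript, RUSC1-AS1, shares 18.6% of the exon bases of FDPS. ACAT2, the thiolase that opens the pathway, read 161, 165 and 157 CPM against 159, 130.0 and 145 CPM, where LX-2FAP replicate 1 lay inside the LX-2Vector range (adjusted p = 0.144 in edgeR, log2 fold change -0.15, SE 0.06). More of ACAT2 than of the other genes is covered from the other strand, 52.3% of its exon bases, so its value is uncertain. IDI1, which isomerises isopentenyl diphosphate, had a log2 fold change of -0.08 (adjusted p = 0.446 in edgeR, SE 0.06) with overlapping groups.

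From squalene onwards, 4 of 11 genes fell, against 2.73% of all tested genes, with a median log2 fold change of -0.17. SQLE (ENSG00000104549, 8:124998497-125022283), the epoxidase that adds the first oxygen to squalene and limits the flow through the later steps, read 149, 161 and 171 CPM in LX-2Vector and 148, 121 and 133 CPM in LX-2FAP. LX-2FAP replicate 1 lay barely under the lowest LX-2Vector library, and the level fell by 16.2% (adjusted p = 0.0344 in edgeR, log2 fold change -0.26, SE 0.06). LSS (ENSG00000160285, 21:46188141-46228824), which closes the rings to lanosterol, read 109, 96.2 and 98.8 CPM against 85.5, 68.9 and 75.9 CPM. The groups of LSS stood well apart, and the level fell by 24.1% (adjusted p = 0.00765 in edgeR, log2 fold change -0.40, SE 0.07).

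TM7SF2 (ENSG00000149809, 11:65111845-65116384), a sterol reductase that acts on the product of CYP51A1, had the largest fold change of the 29 genes and a low level. It read 12.2, 11.1 and 13.0 CPM in LX-2Vector and 9.43, 7.45 and 8.54 CPM in LX-2FAP. No library crossed between the groups, and the level fell by 29.5% (adjusted p = 0.0145 in edgeR, log2 fold change -0.50, SE 0.10). DHCR7 (ENSG00000172893, 11:71428193-71452868), the reductase that turns 7-dehydrocholesterol into cholesterol, read 177, 161 and 171 CPM against 153, 118 and 129.5 CPM. Its groups did not overlap, and the level fell by 21.0% (adjusted p = 0.0154 in edgeR, log2 fold change -0.34, SE 0.07).

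The other 7 genes of the sterol steps did not pass the test. FDFT1, the squalene synthase at the entry to these steps, read 119, 116 and 119 CPM in LX-2Vector and 114, 94.8 and 104 CPM in LX-2FAP, with no overlap but a log2 fold change of only -0.17 (SE 0.06, edgeR adjusted p = 0.0826). CYP51A1, the lanosterol demethylase, and HSD17B7, a ketosteroid reductase, also had all LX-2FAP libraries below LX-2Vector, with log2 fold changes of -0.21 and -0.14 and adjusted p of 0.132 and 0.251. CYP51A1 shares 79.4% of its exon bases with other annotated genes on its own strand, and 7.77% of the 75-base words of HSD17B7 also occur in the pseudogene HSD17B7P2, so the counts of both are uncertain. MSMO1 and NSDHL, which remove the methyl groups of lanosterol, had log2 fold changes of -0.16 and -0.12 with overlapping groups. EBP, the isomerase of the sterol ring, and SC5D, the desaturase before DHCR7, had log2 fold changes of -0.00 (SE 0.16) and 0.02 (SE 0.05).

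Summed over the 18 synthesis genes, the level was 1819, 1837 and 1897 CPM in LX-2Vector and 1744, 1416 and 1560.5 CPM in LX-2FAP. LX-2FAP replicate 1 was thus the nearest to the vector libraries and replicate 2 the farthest. The log2 ratio of the group means of this sum was -0.23, and no p is given for a sum over chosen genes. Of the 18 genes, 8 fell, against 2.73% of all tested genes. In 11 every LX-2FAP library lay below every LX-2Vector library, against 13.4% of all tested genes. In 17 the fold change was below zero, where the median over all tested genes was -0.01.

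Among the 5 genes that control the pathway, 3 fell, against 2.73% of all tested genes. The median log2 fold change over the 5 was -0.35. SREBF2 (ENSG00000198911, 22:41833079-41907308) is the gene of SREBP2 and the only one with a match to the sterol element letters in the windows searched. It read 244, 226 and 240.4 CPM in LX-2Vector and 208, 166 and 182 CPM in LX-2FAP. The groups were separate, and the level fell by 21.6% (adjusted p = 0.00815 in edgeR, log2 fold change -0.35, SE 0.06). SREBF1 (ENSG00000072310, 17:17810399-17837002), whose SREBP1 proteins act mainly on fatty acid genes, read 41.7, 39.4 and 36.7 CPM against 34.0, 27.7 and 29.9 CPM. It was lower in every LX-2FAP library as well and fell by 22.0% (adjusted p = 0.0155 in edgeR, log2 fold change -0.36, SE 0.07).

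INSIG1 (ENSG00000186480, 7:155297776-155310235), which retains SCAP in the endoplasmic reticulum and is itself a target of SREBPs, read 212, 208 and 235 CPM in LX-2Vector and 194, 138 and 162 CPM in LX-2FAP. LX-2FAP replicate 1 was again the nearest to the vector libraries, without overlap, and the level fell by 24.3% (adjusted p = 0.0174 in edgeR, log2 fold change -0.40, SE 0.09). INSIG2 (ENSG00000125629), the second retention protein, read 46.4, 47.9 and 58.4 CPM against 50.4, 41.0 and 43.6 CPM, and here LX-2FAP replicate 1 exceeded 2 of the vector libraries (adjusted p = 0.254 in edgeR, log2 fold change -0.17, SE 0.09). SCAP (ENSG00000114650), the escort protein, read 81.8, 70.8 and 71.3 CPM against 69.2, 71.1 and 67.4 CPM, with overlap (adjusted p = 0.259 in edgeR, log2 fold change -0.11, SE 0.06).

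Ratios between these genes, taken on FPKM, which divides by gene length, separated the groups in 1 of 3 cases. INSIG1 over INSIG2 was 4.94, 4.70 and 4.35 in LX-2Vector and 4.16, 3.64 and 4.03 in LX-2FAP. All LX-2FAP ratios were lower, at an exact 2-sided permutation p of 0.1, which is the smallest that 3 against 3 libraries can give. SREBF2 over SREBF1 was 6.36, 6.25 and 7.13 against 6.64, 6.52 and 6.64 (exact permutation p = 1), so the ratio of the SREBP genes lay in the same range in both groups while both genes fell. SREBF2 over SCAP was 2.48, 2.66 and 2.80 against 2.50, 1.95 and 2.25, with overlap through LX-2FAP replicate 1 (exact permutation p = 0.2). These 3 ratios are not adjusted for one another.

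None of the 6 genes of transport, uptake limit, export and storage passed the test in edgeR, and 1, SOAT1, had an unadjusted p under 0.05 and was called by the Wald test of DESeq2. NPC1 and NPC2, which move cholesterol out of late endosomes and lysosomes, had log2 fold changes of 0.01 (SE 0.04) and -0.05 (SE 0.05), and STARD4, a cytosolic sterol carrier and SREBP target, had -0.06 (SE 0.07). The median of these 3 transport genes was -0.05 and their groups overlapped. ABCA1 (ENSG00000165029), the exporter of cholesterol to apolipoproteins, read 188, 164 and 173 CPM in LX-2Vector and 186, 156 and 179.8 CPM in LX-2FAP (adjusted p = 0.956 in edgeR, log2 fold change -0.01, SE 0.06). MYLIP (ENSG00000007944), a ubiquitin ligase that removes lipoprotein receptors and is a target of the liver X receptor as ABCA1 is, read 14.4, 12.7 and 11.99 CPM against 10.9, 13.7 and 12.4 CPM (adjusted p = 0.647 in edgeR, log2 fold change -0.09, SE 0.10). The groups overlapped in both genes.

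SOAT1 (ENSG00000057252, 1:179293714-179358680), which esterifies cholesterol for storage, was the gene whose LX-2FAP libraries all lay above LX-2Vector. It read 139, 146 and 133 CPM in LX-2Vector and 152, 157 and 154 CPM in LX-2FAP, and its LX-2FAP libraries lay closer together (SD 2.24 CPM) than its LX-2Vector libraries (SD 6.09 CPM). The difference was 10.9% (log2 fold change 0.15, SE 0.04) and missed the threshold narrowly (edgeR adjusted p = 0.0556). The Wald test of DESeq2 put it past the threshold (log2 fold change 0.16, adjusted p = 0.0337), and over all alternatives its adjusted p ran from 0.0191 to 0.231.

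The libraries of LX-2FAP differed in how far these genes lay from the vector group. Over the 11 genes that fell, the median log2 deviation from the LX-2Vector mean was 0.04, -0.06 and 0.02 in the vector libraries and -0.18, -0.52 and -0.39 in LX-2FAP replicates 1, 2 and 3. Replicate 1 was the highest LX-2FAP library in 11 of the 11 and still below every vector library, and replicate 2 was the lowest in 10 of the 11. The cell type markers that fell, COL1A1, COL3A1, PDGFRB and VWF, had the same order of LX-2FAP libraries. The order is thus not particular to the cholesterol genes, and its share over all genes was not counted. The FAP level was likewise unequal, at 620.1, 843 and 707 CPM in replicates 1 to 3. With 3 libraries no relation between the 2 measures was tested.

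**Figure D2:**
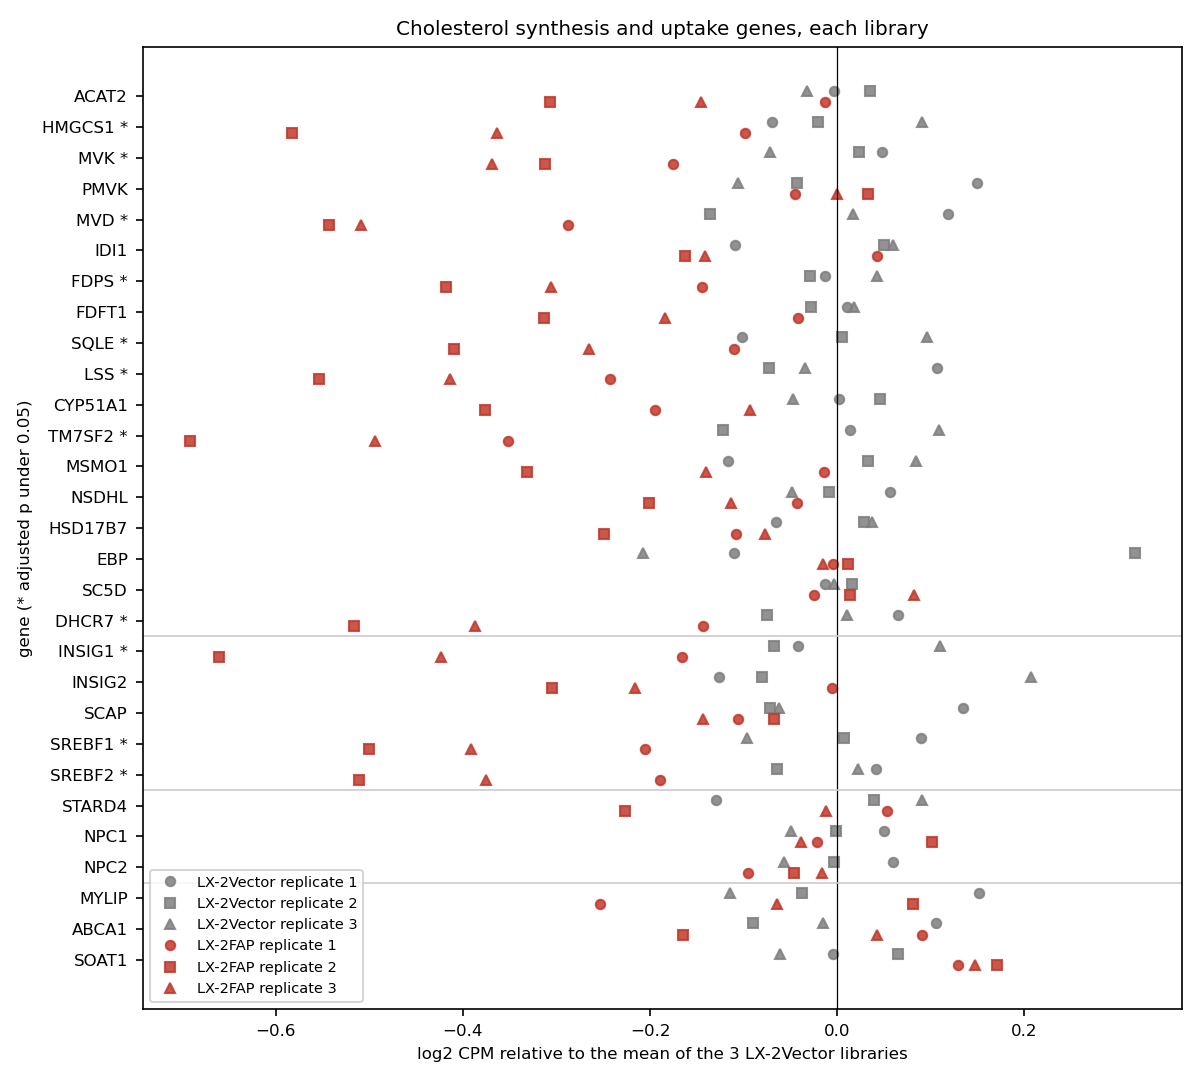
Log2 CPM of each gene (rows, ordered by role, asterisk for an adjusted p under 0.05) in each library relative to the mean of the 3 LX-2Vector libraries, with grey symbols for LX-2Vector, red for LX-2FAP and a symbol shape for each replicate number. In the 11 marked rows the red circle of LX-2FAP replicate 1 lies nearest to the grey symbols, and in 10 of them the red square of replicate 2 lies farthest to the left.

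The number of genes that passed changed with the library left out. Without LX-2FAP replicate 3, edgeR called 0 of the 29 genes (15 had an unadjusted p under 0.05), when 0.0638% of all tested genes were still called lower, and without LX-2FAP replicate 2 it called MVD, LSS and SREBF2, when 0.341% of all genes were. Without LX-2FAP replicate 1, 15 genes passed, 14 of them lower, where 5.62% of all genes were lower. Leaving out LX-2Vector replicates 1, 2 and 3 in turn gave 7, 8 and 9 genes called lower, where 1.15%, 1.80% and 0.960% of all genes were called lower. MVD, LSS and SREBF2 were called in 5 of the 6 fits with a library left out, and the fold changes of the 11 genes were below zero in all 6. In limma-trend on log2(FPKM + 1), 0 of the 29 passed, 17 had an unadjusted p under 0.05, and 0.00547% of all genes were called lower.

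**Figure D3:**
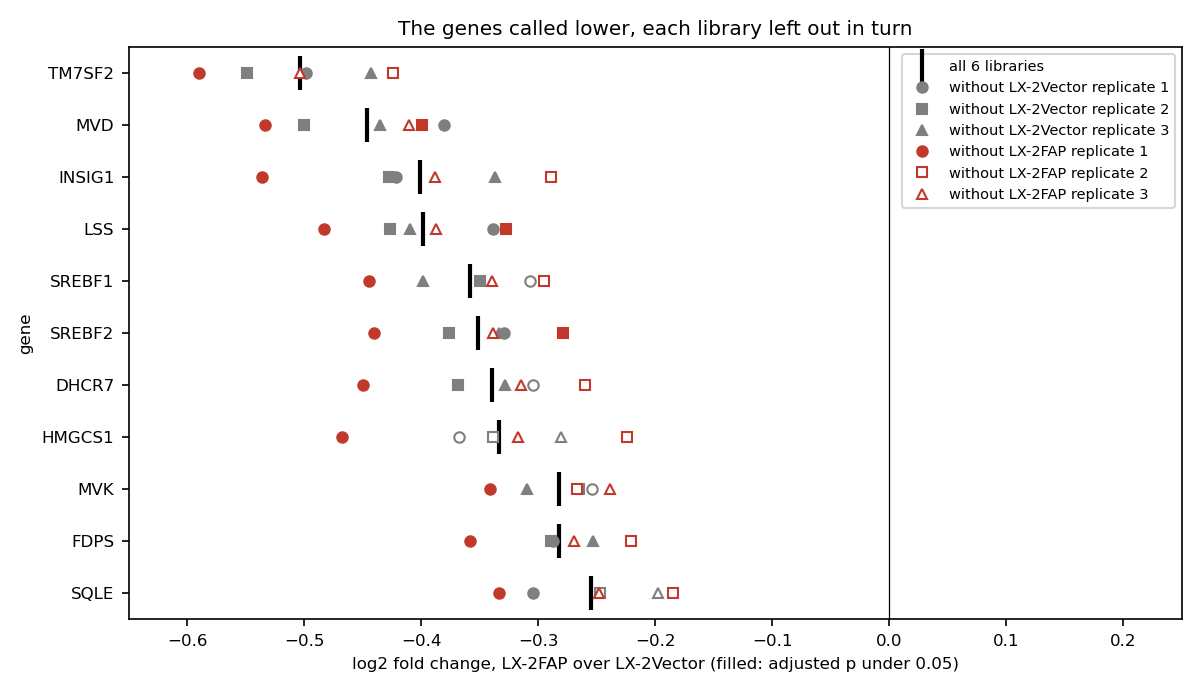
Log2 fold change of LX-2FAP over LX-2Vector (x axis) for the 11 genes that fell (rows), with a black bar for the fit of all 6 libraries and a symbol for each fit without 1 library, filled where the adjusted p was under 0.05. All symbols lie below zero, the fits without LX-2FAP replicate 1 (red circles) lie farthest to the left in each row, and the fits without LX-2FAP replicate 3 (open red triangles) are unfilled in every row.

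GC content moved with the fold change. The genes that fell had a median GC content of 58.2% over their longest transcript (n = 11) against 44.9% for the 18 that did not pass and 47.7% over all tested genes with a value. Across the 29 genes, which share the same 6 libraries, Pearson's r between GC content and log2 fold change was -0.51, and across 17929 tested genes it was -0.29. TM7SF2 and MVD, with the largest fold changes, had 64.2% and 63.7% GC, but HMGCS1 at 40.2%, INSIG1 at 46.0% and SQLE at 46.5% were below the median of all genes. When the trend of fold change with GC content over all genes was taken out, an alternative added after seeing the data, 5 of the 29 genes were called, where 1.15% of all genes were called lower: HMGCS1 (-0.36), INSIG1 (-0.38), MVD (-0.29), LSS (-0.28) and SREBF2 (-0.25). MVK, FDPS, SQLE, TM7SF2, DHCR7 and SREBF1 were not called, at adjusted p between 0.051 and 0.105. Their log2 fold changes went from -0.28 to -0.17 for MVK, from -0.28 to -0.19 for FDPS, from -0.26 to -0.23 for SQLE, from -0.50 to -0.34 for TM7SF2, from -0.34 to -0.22 for DHCR7 and from -0.36 to -0.21 for SREBF1. The median log2 fold change of the synthesis genes was -0.18 against -0.19 before. What part GC content has in the values of the 11 genes was not tested further.

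**Figure D4:**
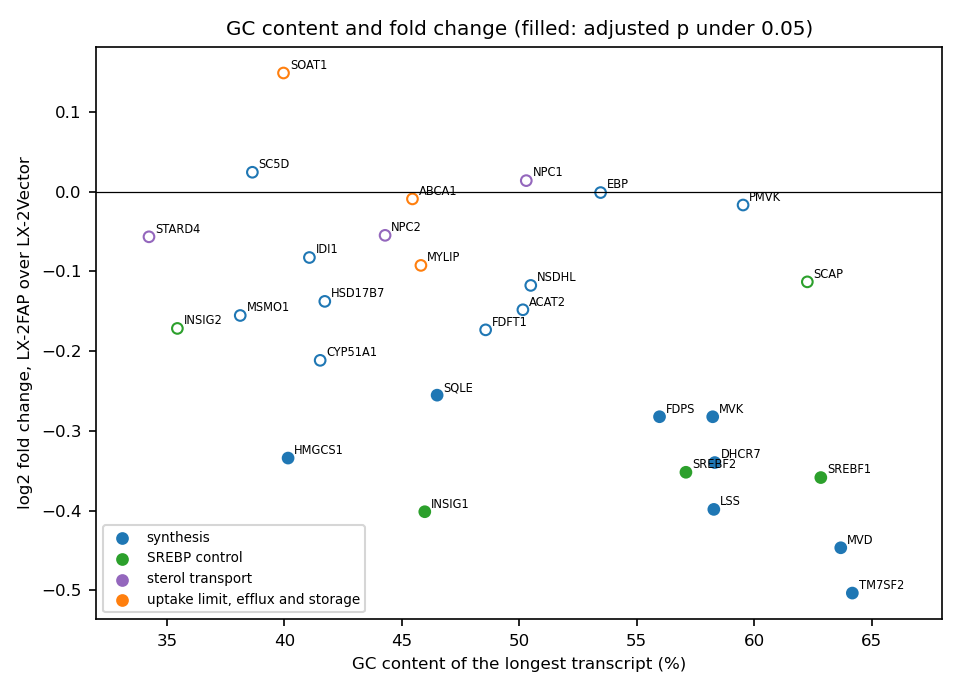
GC content of the longest transcript in percent (x axis) against the log2 fold change of LX-2FAP over LX-2Vector (y axis) for the 29 genes, coloured by role and filled where the adjusted p was under 0.05. Of the 11 filled points, HMGCS1, SQLE and INSIG1 lie at 40.2% to 46.5% GC and the other 8 lie above them, up to TM7SF2 at 64.2%.

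Levels of different genes are compared here on FPKM. In LX-2Vector the most abundant of the 29 transcripts per length was MSMO1 (69.6 ± 5.22 FPKM), followed by HMGCS1 (62.0 ± 3.74), ACAT2 (61.4 ± 1.55) and INSIG1 (60.2 ± 4.13), and these 4 overlapped as neighbours in the order. NSDHL (53.3 ± 1.76 FPKM) stood below INSIG1 and above SQLE (37.6 FPKM) with no overlap. SREBF2 lay at 31.6 ± 1.12 FPKM and SREBF1 at 4.81 ± 0.292 FPKM. The lowest were TM7SF2 (3.57 ± 0.282 FPKM) and EBP (2.01 ± 0.411 FPKM). Of the 28 pairs of neighbours in this order, 14 overlapped and 14 did not, so much of the fine order was within the spread of the libraries. The genes that fell stood at both ends, from HMGCS1 to TM7SF2.

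**Figure D5:**
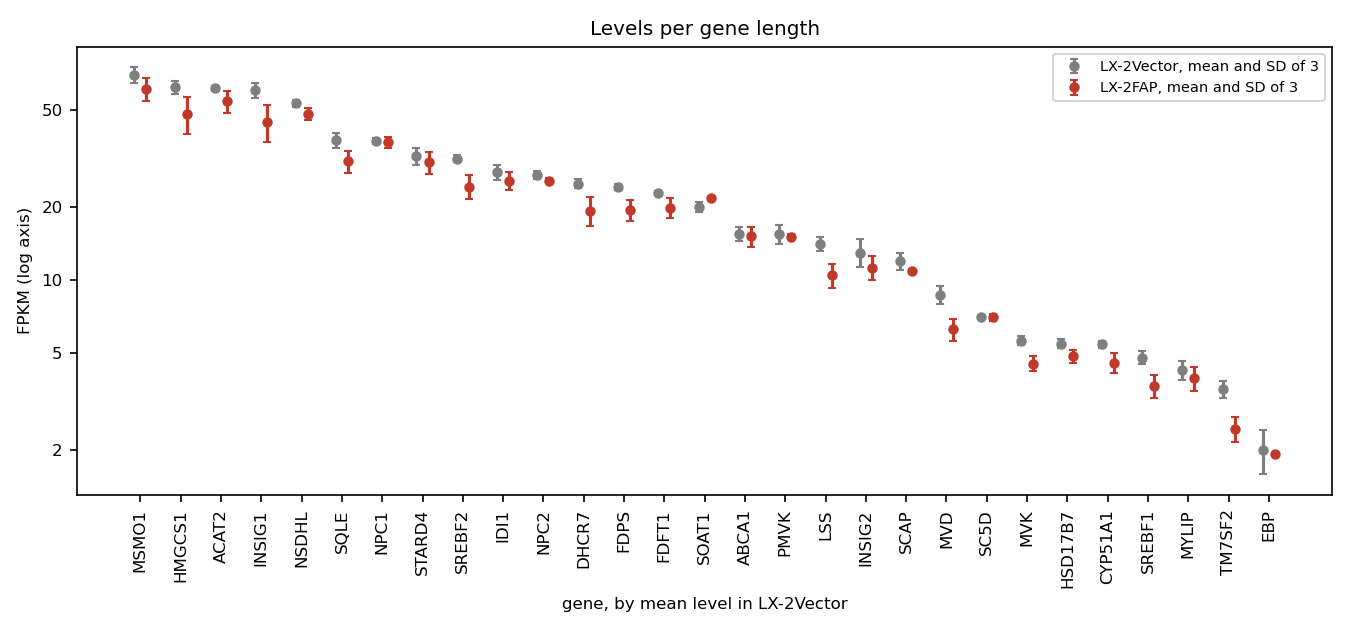
Level of each of the 29 genes in FPKM (y axis, log scale), ordered by the LX-2Vector mean, with points for the mean and bars for the SD of 3 libraries in LX-2Vector (grey) and LX-2FAP (red). Levels run from 69.6 FPKM for MSMO1 to 2.01 FPKM for EBP in LX-2Vector, and the genes that fell occur along the whole range.

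Other genes of sterol and lipid metabolism, 72 in 6 lists, were read alongside. Of these, 68 were tested and 11 passed, 6 lower and 5 higher, where 5.29% of all tested genes passed in either direction. Among 3 further genes of sterol synthesis, edgeR called 0, and 1 was higher at an unadjusted p under 0.05, with a median log2 fold change of -0.05.

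Of 15 genes of fatty acid synthesis and desaturation, which are targets of SREBPs too, 4 fell and 1 rose. Over all tested genes, 2.73% fell and 2.57% rose. The median log2 fold change of the 15 was -0.10. FADS2, a desaturase of polyunsaturated fatty acids, read 437, 395 and 406 CPM in LX-2Vector and 342, 264 and 285 CPM in LX-2FAP, and fell by 0.47 on the log2 scale (SE 0.07, edgeR adjusted p = 0.00411). SCD, which makes oleate, read 1068, 1018 and 1131 CPM against 966, 635 and 769 CPM, and fell by 0.44 (SE 0.10, edgeR adjusted p = 0.0197). Both had LX-2FAP replicate 1 nearest to the vector libraries and replicate 2 farthest. This order was also seen in most cholesterol genes that fell and in the cell type markers that fell. FASN, the fatty acid synthase, fell by 0.33 (adjusted p = 0.0304) and FADS1 by 0.21 (adjusted p = 0.0144), whereas ELOVL6, an elongase, rose by 0.21 (SE 0.05, adjusted p = 0.0331), all by edgeR. The Wald test of DESeq2 did not call SCD (adjusted p = 0.111) or FASN (adjusted p = 0.126), and FASN was also lost when the GC trend was taken out (log2 fold change -0.16, adjusted p = 0.157).

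Of 12 genes of the isoprenoid branches, which draw on farnesyl diphosphate, 2 rose and 0 fell in edgeR, where 2.57% of all tested genes rose. At an unadjusted p under 0.05, 0 were lower too, where 11.6% of all genes were lower. The median log2 fold change was 0.08. NUS1, a subunit of the enzyme that makes the dolichol backbone, read 92.8, 95.5 and 92.1 CPM in LX-2Vector and 108, 114 and 108 CPM in LX-2FAP (adjusted p = 0.00985 in edgeR, log2 fold change 0.23, SE 0.04). ZMPSTE24, a protease of prenylated proteins, read 118, 126 and 124 CPM against 136, 149 and 153 CPM (adjusted p = 0.0124 in edgeR, log2 fold change 0.25, SE 0.05). In both, every LX-2FAP library was above every vector library.

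Of 12 genes that cut SREBPs or degrade sterol-regulated proteins, FAF2, a factor of protein degradation at the endoplasmic reticulum, was the single one past the threshold, with 243, 243 and 229 CPM in LX-2Vector and 253, 273 and 271 CPM in LX-2FAP (adjusted p = 0.04995 in edgeR, log2 fold change 0.15, SE 0.04). This call was lost with library size alone (adjusted p = 0.0947), with the replicate block (adjusted p = 0.0606), in limma-trend and in 5 of the 6 fits with a library left out, all but that without LX-2FAP replicate 1. Of 17 tested lipoprotein receptors and carriers, 1 fell and 1 rose. Over all tested genes 2.73% fell and 2.57% rose, so single calls in lists this short do not mark out a list. LRP1, an endocytic receptor, read 195, 167 and 192 CPM against 159, 127 and 134 CPM (adjusted p = 0.00823 in edgeR, log2 fold change -0.40, SE 0.07), with no overlap. NCEH1, which hydrolyses stored cholesteryl esters, read 60.1, 63.9 and 59.3 CPM against 69.0, 78.8 and 77.8 CPM (adjusted p = 0.0115 in edgeR, log2 fold change 0.30, SE 0.06), also with no overlap. Of 9 tested genes of the liver X receptor and of efflux, PLTP, the phospholipid transfer protein, read 16.3, 16.5 and 18.5 CPM against 13.1, 10.7 and 12.2 CPM and fell by 0.50 on the log2 scale (SE 0.09, edgeR adjusted p = 0.00823), while SOAT2, ABCG1, CH25H and CYP7B1 had too few reads to be tested. Other genes of these pathways are not analysed here.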

How the data were processed

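RNA-seq libraries of LX-2Vector and LX-2FAP were grouped by the sample titles. Per the submitters' processing notes, HISAT2 2.0.5 and featureCounts 1.5.0-p3 were used, and genome build hg18 is named. The authors deposited whole-number read counts per gene, not normalized, and FPKM values that the authors computed from count and gene length. Of 60605 Ensembl identifiers, 58337 were in GENCODE release 29 (GRCh38), whose coordinates and exons are used here. The use of strand in counting is not given in the sources used here.

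The main test was the edgeR 4.0.16 quasi-likelihood fit to the counts, after TMM normalisation and filtering (minimum count 10, minimum total 15) with no covariate. P-values were 2-sided and adjusted by the Benjamini-Hochberg method over 18275 genes, and calls were made at 0.05. Standard errors came from the log2 fold change and the F statistic. With 3 libraries a group, an exact permutation test cannot give a 2-sided p below 0.1. The steps were tested on simulated data. Alternatives were DESeq2 1.42.0 (Wald test, size factors), library size alone, other filters, limma 3.58.1 on log2(FPKM + 1) and log2(FPKM + 0.1), a replicate block, an adjusted p under 0.01, each library left out and, added after seeing the data, removal of the GC or length trend (loess, span 0.5). The members and lists were chosen with earlier results of these data known. All 29 members were accounted for, with per-library values for called members and for INSIG1, INSIG2, SREBF1, SREBF2, SCAP, ABCA1 and MYLIP, and in the other lists called genes only. Per-library values of ACAT2, FDFT1 and SOAT1 were added after their values were seen. A gene that belongs to these pathways and is not reported here was left out of the lists and their counts.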

Additional observations from a re-analysis of the deposited data

How the results depend on the processing

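Of the 29 genes, 11 were called in all 6 libraries, and leaving out 1 library at a time gave 0 to 15 (0 to 14 lower and 0 to 1 higher), with the values per library given above. Limma-trend called 0 with either pseudocount. An adjusted p under 0.01 left 3, all of them lower, where 0.339% of all genes were lower. Removal of the GC trend left 5, all of them lower, where 1.15% of all genes were lower. The count of higher calls went from 0 to 1 with the Wald test of DESeq2, with its size factors, without the low-count filter and after removal of the length trend, and in each of these the gene was SOAT1. The other pathway lists had 11 calls, where 967 of all 18275 genes were called. With a library left out they had 1 to 15. There was 1 without LX-2FAP replicate 3 (26 of all 18822 genes), 3 without LX-2FAP replicate 2 (129 of 18765) and 7 without LX-2Vector replicate 1 (391 of 18730). The 15 came without LX-2FAP replicate 1 (1949 of 18794). Limma-trend gave 0 with either pseudocount (2 of 18275), and 4 passed at an adjusted p under 0.01 (116 of 18275). The log2 fold change of FAP ran from 8.17 to 8.45 with a library left out. The median of the synthesis genes ran from -0.24 to -0.13 and their summed level from -0.31 to -0.16. The neighbour pairs that did not overlap ran from 15 to 21 with an LX-2Vector library left out, against 14 with none left out. Ranges over fewer libraries are never wider, so this rise does not show how stable the order is. The replicate numbers are shared by the groups but did not pair the libraries: deviations of same-numbered libraries correlated at -0.04, 0.04 and -0.01. With the replicate number as a block, 11 of the 29 genes and 10 of the other pathway genes (all but FAF2) were called, and FAP had a log2 fold change of 8.30. The sign turned in 7 genes with fold changes near zero, at adjusted p of 0.441 or more. PMVK ran from -0.0641 to 0.0711 with a library left out and was 0.11 without the GC trend and 0.0199 without the length trend. EBP ran from -0.0847 to 0.16 with a library left out and was 0.00579 with DESeq2 size factors, 0.00131 with the block, 0.0744 without the GC trend and 0.0359 without the length trend. SC5D ran from -0.00405 to 0.0512 and was -0.00441 with library size alone, -0.00435 and -0.00495 in the limma fits and -0.0178 without the GC trend. SCAP was 0.0360 without the GC trend. STARD4 ran from -0.12 to 0.0211. NPC1 ran from -0.0295 to 0.0415 and was -0.0150 with library size alone and -0.0145 and -0.0149 in the limma fits. ABCA1 ran from -0.0589 to 0.0638 and was 0.00664 without the GC trend and 0.0301 without the length trend. The cause of these changes was not tested. With 3 libraries a group the precision is limited, and the parts of library number and of depth in it were not separated. EBP, at 63 to 85 counts, had the largest standard error of the 29 genes, 0.16. Counts shared between overlapping genes or strands cannot be divided here.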
